A study of Mus musculus with 3 samples.

Results

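The ADAM, ADAMTS and matrix metalloproteinase genes and the genes of their tissue inhibitors (TIMPs) were examined in sorted endothelial cells from kidneys of mouse embryos. The members were all genes whose symbol belongs to the Adam, Adamts, Adamtsl, Mmp or Timp series and that had at least 1 probe set assigned to that symbol alone. This gave 82 genes of the 19938 measured, made up of 33 ADAM genes, 23 ADAMTS and ADAMTSL genes, 22 MMP genes and 4 TIMP genes, with 107 probe sets between them. The rule used symbols alone and no measured value. The cells came from CD-1 embryos at 15.5 days post coitum (E15.5, Theiler stage TS23) that carried the transgene Tg(TIE2GFP)287Sato, in which green fluorescent protein (GFP) is driven by the promoter of Tek (Tie2), an angiopoietin receptor gene. For each of 3 samples, 4 to 5 kidneys were pooled and GFP-positive cells were sorted after trypsin treatment, and the RNA went through 1 round of amplification before hybridisation to an Affymetrix Mouse Gene ST array. The 3 arrays form a single group without a second cell type or treatment, so each gene was compared with a fixed level and with itself across arrays. Tie2 is also made by some blood-forming cells, so a Tie2-driven gate need not hold endothelial cells alone. Whether the pools stem from different litters is not in the labels, while the study's methods describe the samples of each type as independent biological samples. The p-values cover nothing beyond the spread among the arrays, which the test draws from each probe set and from all probe sets together.

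ADAMs are membrane-anchored zinc proteases that release the outer domains of cell surface proteins, while ADAMTS proteins are secreted proteases that cut proteoglycans, procollagens and other matrix proteins. MMPs degrade collagens, laminins and many secreted proteins, and TIMPs bind the active site of MMPs and of some ADAM and ADAMTS enzymes. In growing vessels these enzymes are known for opening the basement membrane, releasing growth factors from the matrix and starting Notch signalling.

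The values are log2 expression levels as deposited. A gene was called above or below when limma's test placed the mean of its 3 arrays on that side of 100 (6.64 log2). The threshold was an adjusted p of 0.05, and 100 is the low-signal filter level used by the study. The study required a raw value of 100 in 3 samples of its own normalized data. The rule here is therefore another, and the scale may be. A gene with several probe sets counted as above if any of them was, and as below only if all were. Because probe sets differ in brightness, no single gene's level was set against that of another, and medians over many genes are descriptions only. All 3 arrays carried the endothelial programme, with 11 of 12 endothelial markers above the level and none below. Among the 12, Tek measured 11.12, 10.97 and 10.13 log2. Its promoter drove the GFP used for sorting, so the level of Tek is no independent sign of cell type. Of 13 macrophage markers, 2 were above, none below and 11 on neither side. With 1 spread pooled over all probe sets, 8 were above and 1 below. The mean level of the 13 was 6.74, 7.86 and 8.38 log2 in arrays 1, 2 and 3. Of the other lists, 5 of 8 capping mesenchyme (3 with the pooled spread), 4 of 9 stromal (2), 3 of 10 ureteric bud (1), 5 of 8 erythroid (2), 1 of 4 megakaryocyte (1), 1 of 4 podocyte (1), 1 of 7 mural (0) and 0 of 9 neutrophil markers (0) were above. All 12 endothelial markers were above with the pooled spread. Over all genes, 41.6% were above the level (36.0% with the pooled spread). Several of the lists other than the endothelial one lay near or under those shares. Medians over all probe sets were 6.50, 6.51 and 6.55 log2, and the SD over probe sets was 1.84 in array 3 against 2.08 and 2.06.

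Of the 82 genes, 23 lay above the level (28.0%), where 41.6% of all genes were above. A further 50 lay below it (61.0%), where 41.6% of all genes were below, and 9 were on neither side. The families divided unequally. The same shares over all genes apply to the family and role counts that follow, and some groups lay near them. Above the level were 7 of 33 ADAM genes, 10 of 23 ADAMTS and ADAMTSL genes, 3 of 22 MMP genes and 3 of 4 TIMP genes. Below it were 24 ADAM, 10 ADAMTS and ADAMTSL, 15 MMP genes and 1 TIMP gene. The median of the 82 gene means was 5.99 log2 against 6.67 log2 for all genes. Many probe sets had exactly the same value in several arrays, so that a gene just off the level could be called on a spread of 0.00. A gene's own spread here means that of its probe sets as moderated by limma. Where the 3 values are equal, that spread combines limma's prior (SD 0.016 log2) with a spread of 0.00. It is therefore smaller than the prior SD. With 1 spread pooled over all probe sets (SD 0.49 log2), 15 members were above, where 36.0% of all genes were above, and 41 were below, where 32.5% of all genes were below. Of the 23 genes, 14 were above in both tests, 9 only with their own spread, and Adam10 only with the pooled spread. Leaving out array 1 or array 2 lowered the 23 to 11, and leaving out array 3 gave 26. Of the 23 genes, 10 were above in every one of these fits. They were Adam15, Adamts1, Adamts4, Adamts7, Adamts9, Adamts17, Adamtsl4, Adamtsl5, Timp1 and Timp2. The others, among them Adam9, Adam12, Adam17, Adam19 and Adam33, lost the call in some fit. Such fits rest on 2 arrays, so a call lost there can come from the spread alone. A gene with equal values in all arrays has the same mean in each fit.

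**Figure D1:**
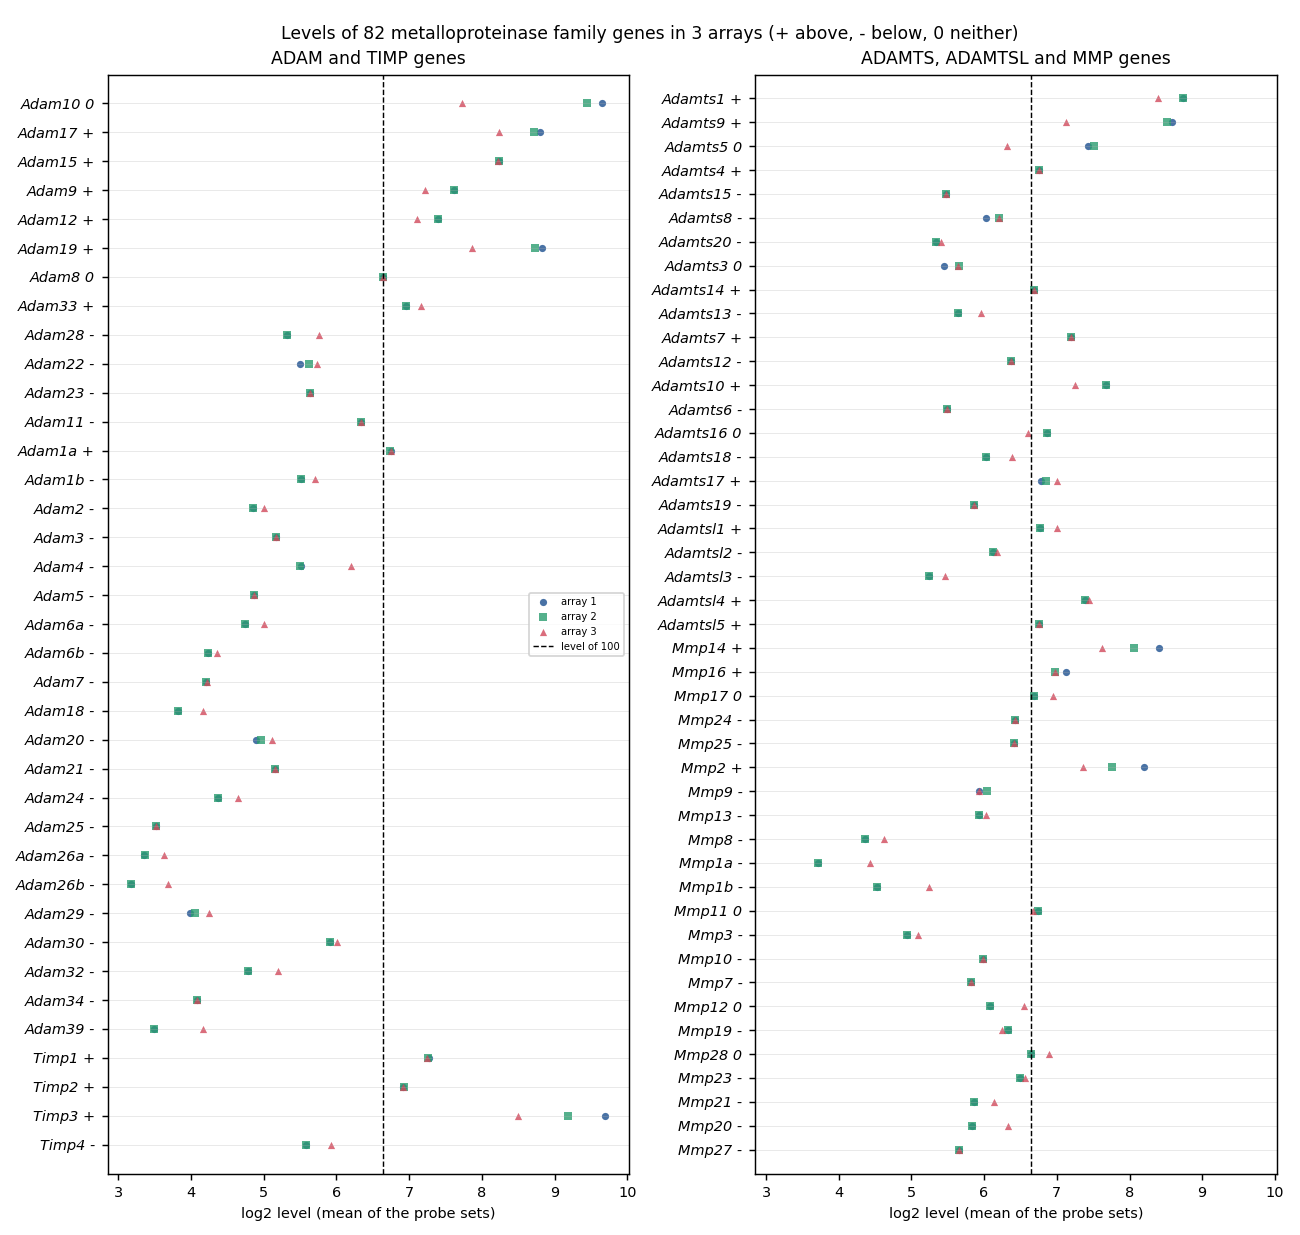
Log2 level (horizontal axis) of the 82 genes in arrays 1, 2 and 3, with the ADAM and TIMP genes on the left and the ADAMTS, ADAMTSL and MMP genes on the right. The dashed line is the level of 100, and +, - and 0 after a name mark the 23 genes above, the 50 below and the 9 on neither side.

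**Figure D2:**
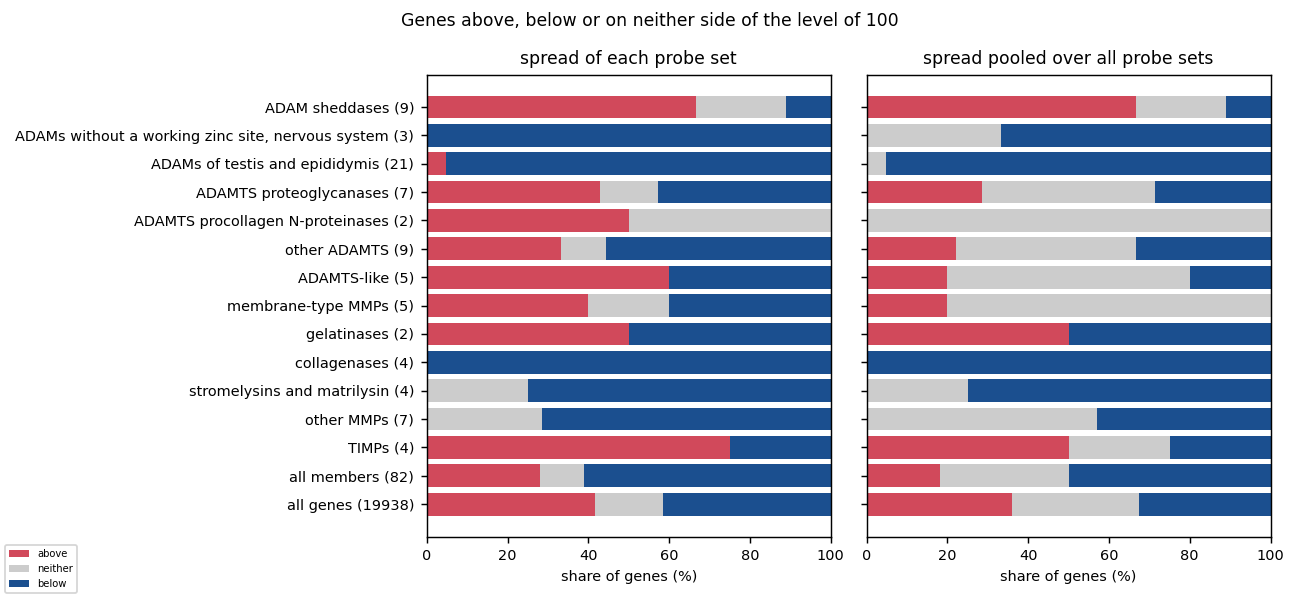
Share of genes (horizontal axis, %) above, below or on neither side of the level of 100 in each role group, with the number of genes in brackets, by the spread of each probe set and by the pooled spread. ADAM sheddases have 6 of 9 genes above in both panels, while the 4 collagenases are below in both.

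The sheddases, the ADAMs that cut receptors and ligands from the cell surface, held most of the ADAM genes above the level, with 6 of 9 above by either spread (with the pooled spread, Adam10 in place of Adam33). Adam17, the enzyme that releases tumour necrosis factor and ligands of the epidermal growth factor receptor, measured 8.80, 8.72 and 8.24 log2, a mean of 8.58 ± 0.30 (SD, n = 3) and an adjusted p of 0.00653. Adam15, known from endothelial cell junctions, measured 8.24, 8.23 and 8.22 log2, with an adjusted p of 3.22e-05. Adam19, which acts in endocardial cushion formation, measured 8.82, 8.73 and 7.87 log2 (adjusted p = 0.0216). All 3 genes lay over the level in every array. Array 3 held the lowest value of Adam17 and Adam19, while the arrays differed by 0.02 log2 units for Adam15, for which array 3 was highest after quantile normalization (8.11, 8.14 and 8.48 log2). Adam9, a widely expressed sheddase, measured 7.61, 7.61 and 7.21 log2 (adjusted p = 0.0198). Adam12, known from muscle and mesenchyme, measured 7.39, 7.39 and 7.11 log2 (adjusted p = 0.0167). Adam33, a gene of smooth muscle and mesenchyme, measured 6.95, 6.95 and 7.17 log2 (adjusted p = 0.0276) and was not above with the pooled spread.

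Adam10, which makes the ligand-dependent cut of Notch receptors and sheds VE-cadherin, was over 100 in every array but missed the threshold. It measured 9.65, 9.44 and 7.72 log2, a mean of 8.94 ± 1.06 (SD, n = 3) with an adjusted p of 0.0541. Its SD was the largest of the 82 genes, with arrays 1 and 2 close together and array 3 lower. Without array 3 the gene passed the test. Adam8, an ADAM of leukocytes, sat on the level at 6.65 log2 in all 3 arrays. Adam28, known from lymphocytes and epithelia, was below at 5.32, 5.32 and 5.76 log2.

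The ADAMs that lack a working zinc site and act as adhesion or synaptic proteins in the nervous system were all below. Adam11 measured 6.33 log2 in every array. Adam22, a receptor for secreted LGI proteins, measured 5.50, 5.63 and 5.73 log2, and Adam23 measured 5.64 log2 in every array. With the pooled spread, Adam22 and Adam23 remained below and Adam11 was on neither side.

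The ADAMs of testis and epididymis, many of which act on the sperm surface, were nearly all below. Of 21 measured genes 20 were below by either spread, with means from 3.34 to 5.94 log2. Adam1b measured 5.51, 5.51 and 5.70 log2, Adam2, a fertilin subunit, 4.85, 4.85 and 5.00 log2, and Adam3, a sperm surface protein, 5.16 log2 in every array. The exception was Adam1a, which measured 6.75, 6.73 and 6.75 log2 and was called above (adjusted p = 0.00416) although it lay only 0.10 log2 units over the level. With the pooled spread it was on neither side.

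Among the ADAMTS proteoglycanases, which cut versican and aggrecan, 3 of 7 genes were above and 3 below. Each share, 42.9%, lay near the 41.6% of all genes on that side. Adamts1 measured 8.74, 8.74 and 8.38 log2, a mean of 8.62 ± 0.21 (SD, n = 3) with an adjusted p of 0.00305. Adamts9, a versicanase of vessels and mesenchyme, had 6 probe sets, whose mean was 8.58, 8.51 and 7.12 log2. All 6 had a mean over the level, but only 2 passed the test with their own spread, and all 6 did with the pooled spread. The 2 that passed measured 7.87, 7.87 and 7.30 log2 and 7.91, 7.91 and 7.87 log2. Of the other 4, 1 measured 9.97, 10.10 and 7.70 log2, and another was under the level in array 3, with 9.14, 9.55 and 6.35 log2. The lower value in array 3 was thus large in some probe sets of the gene and small in others.

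Adamts5, the aggrecanase and versicanase encoded next to Adamts1, measured 7.42, 7.52 and 6.32 log2, a mean of 7.09 ± 0.67 (SD, n = 3). It was over the level in arrays 1 and 2 and under it in array 3, and passed neither with its own spread (adjusted p = 0.365) nor with the pooled spread (adjusted p = 0.161). Adamts4 measured 6.75 log2 in all 3 arrays, 0.11 log2 units over the level, and was above only with its own spread. Adamts8, Adamts15 and Adamts20 were below, at 6.02, 6.20 and 6.20 log2 for Adamts8, 5.48 log2 in every array for Adamts15, and 5.34, 5.34 and 5.40 log2 for Adamts20. Adamts8 was not below with the pooled spread.

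The procollagen N-proteinases, which trim the ends of fibrillar procollagens, were represented by Adamts3 and Adamts14. Adamts14 measured 6.69 log2 in every array and was above only with its own spread. Adamts3 had 16 probe sets, of which 11 were below, 5 on neither side and none above by limma's test, and their mean was 5.44, 5.66 and 5.65 log2. One of the 5 measured 5.79, 8.50 and 6.61 log2 and so stood over the level in array 2 alone. Another had the same order of arrays under the level, at 5.45, 6.28 and 5.88 log2. Adamts3 therefore counted on neither side. Adamts2 had no probe set of its own symbol alone and was not analysed here.

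Of the other ADAMTS genes, 3 of 9 were above and 5 below. Adamts10, a protease of fibrillin microfibrils, measured 7.68, 7.68 and 7.25 log2 (adjusted p = 0.0197) and was above by either spread. Adamts7, which cuts cartilage oligomeric matrix protein, measured 7.19 log2 in every array and was above with its own spread (adjusted p = 6.5e-05) but not with the pooled one (adjusted p = 0.0786). Adamts12, its close relative, was below at 6.36 log2 in every array. Adamts13, the protease of von Willebrand factor, was below at 5.64, 5.64 and 5.96 log2, while its substrate Vwf measured 7.13 log2 in every array and was above with its own spread. Adamts6, a relative of Adamts10, was below at 5.48 log2 in every array, and Adamts16 was on neither side at 6.86, 6.86 and 6.60 log2.

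Adamts17 was the member with probe sets called on both sides of the level. Of its 5 probe sets, 2 were above, at 8.37, 8.37 and 8.63 log2 and at 8.33 log2 in every array. The other 3 were below, at 5.98 log2 in every array, at 5.81, 6.16 and 6.16 log2, and at 5.45, 5.45 and 5.90 log2. Its count as a gene above the level rests on the rule that 1 probe set suffices. Which transcripts each probe set reads was not analysed here.

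**Figure D3:**
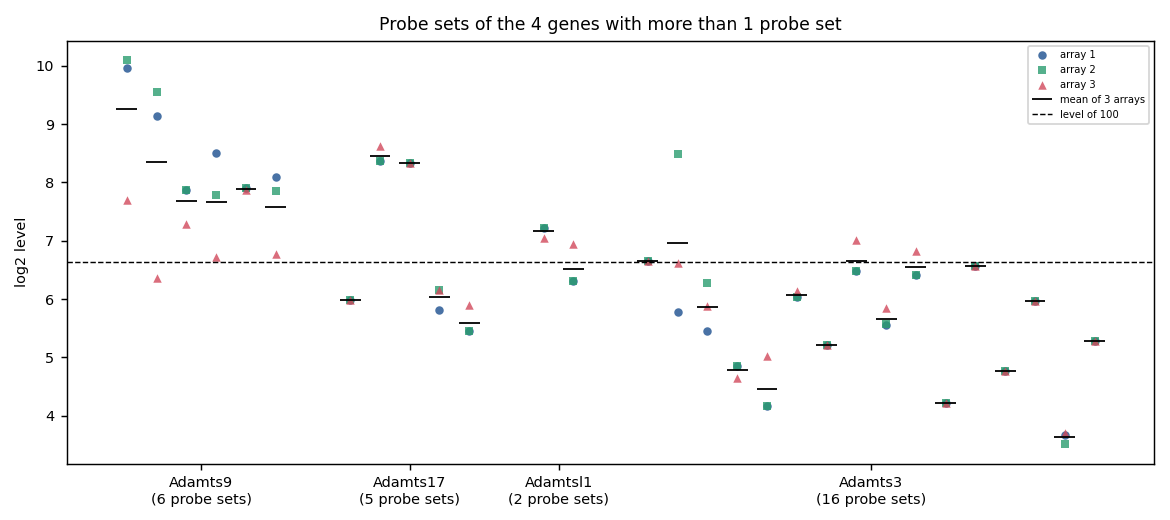
Log2 level (vertical axis) of every probe set of the 4 genes with more than 1, in arrays 1, 2 and 3, with the mean of the 3 arrays as a bar and the level of 100 as a dashed line. Adamts9 has all 6 bars over the line, Adamts17 has 2 over and 3 under, and most of the 16 Adamts3 probe sets lie under it.

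The ADAMTS-like proteins resemble ADAMTS proteins without their protease domain, and 3 of the 5 genes were above. Adamtsl4, which binds fibrillin microfibrils, measured 7.39, 7.39 and 7.44 log2, a mean of 7.41 ± 0.03 (SD, n = 3) with an adjusted p of 0.000465, and was the one above by either spread. Adamtsl5 measured 6.75 log2 in every array and passed only with its own spread. Adamtsl1 averaged 6.76, 6.76 and 6.996 log2 over 2 probe sets, 1 above and 1 on neither side. Adamtsl2, which binds latent TGF-beta binding protein, measured 6.13, 6.13 and 6.18 log2, and Adamtsl3 measured 5.24, 5.24 and 5.47 log2, both below.

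Of the 22 MMP genes, 3 were above, and all of these belonged to the membrane-type MMPs and the gelatinases. Mmp14, the membrane protease that activates pro-MMP2 and cuts fibrillar collagen, measured 8.41, 8.06 and 7.62 log2, a mean of 8.03 ± 0.39 (SD, n = 3) with an adjusted p of 0.0212. Mmp2, a gelatinase that cuts collagen IV, measured 8.20, 7.76 and 7.36 log2, a mean of 7.77 ± 0.42 (SD, n = 3) with an adjusted p of 0.0362. Both were highest in array 1, lowest in array 3 and over the level in every array. Both were above by either spread. In the fits on 2 arrays both lost the call, with means still 1.20 to 1.59 log2 units over the level for Mmp14 and 0.91 to 1.33 for Mmp2. Mmp16 measured 7.12, 6.98 and 6.98 log2 (adjusted p = 0.013) and was above only with its own spread. Mmp17, which like Mmp25 is anchored by a lipid, was on neither side at 6.68, 6.68 and 6.95 log2. Mmp24 and Mmp25 lay just below, at 6.42 and 6.41 log2 in every array, and neither was below with the pooled spread. Mmp15 was not analysed here.

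Mmp9, the gelatinase of neutrophils and macrophages, was below at 5.92, 6.04 and 5.92 log2 (adjusted p = 0.00264). All 4 collagenases were below by either spread. Mmp13, the main collagenase of mice, measured 5.93, 5.93 and 6.02 log2, and Mmp8, the neutrophil collagenase, 4.36, 4.36 and 4.62 log2. Mmp1a and Mmp1b measured 3.71, 3.71 and 4.43 log2 and 4.53, 4.53 and 5.24 log2. Of the stromelysins and matrilysin, Mmp3, Mmp7 and Mmp10 were below by either spread, at 4.93, 4.93 and 5.09 log2 for Mmp3, at 5.82 log2 in every array for Mmp7 and at 5.98 log2 in every array for Mmp10.

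Mmp11, a stromelysin that furin activates inside the cell, was over 100 in every array at 6.74, 6.74 and 6.67 log2, a mean of 6.72 ± 0.04 (SD, n = 3), but did not pass (adjusted p = 0.077). It lay 0.07 log2 units over the level, and with the pooled spread its adjusted p was 0.883. Among the other MMPs, 5 of 7 were below and none above. Mmp12, the macrophage metalloelastase, measured 6.09, 6.09 and 6.55 log2 and was on neither side. The macrophage markers averaged 6.74, 7.86 and 8.38 log2 in the same arrays, and their part in the values of Mmp9 and Mmp12 was not tested. Mmp28, known as epilysin, measured 6.65, 6.65 and 6.90 log2 and was on neither side although over 100 in every array. Mmp19 measured 6.32, 6.32 and 6.25 log2 and Mmp23 6.50, 6.50 and 6.56 log2, and both were below with their own spread only.

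Of the inhibitors, 3 of 4 were above. Timp3, the matrix-bound inhibitor that also blocks ADAM17 and ADAMTS enzymes and the binding of VEGF to its receptor, measured 9.70, 9.19 and 8.49 log2, a mean of 9.13 ± 0.60 (SD, n = 3) with an adjusted p of 0.0157. Timp1 measured 7.27, 7.27 and 7.25 log2 (adjusted p = 0.000165), and Timp2, which also takes part in the activation of pro-MMP2 by MMP14, measured 6.92, 6.93 and 6.92 log2 (adjusted p = 0.000393). Timp4, known mainly from heart and brain, was below at 5.58, 5.58 and 5.92 log2 (adjusted p = 0.0106). The 3 arrays spanned 1.20 log2 units for Timp3, 0.02 for Timp1 and 0.01 for Timp2, and 0.77, 0.13 and 0.05 after quantile normalization. With the pooled spread, Timp1 and Timp3 were above and Timp2 was on neither side. In the fits on 2 arrays Timp3 lost the call, although its mean stayed 2.20 to 2.80 log2 units over the level.

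The promoters were searched for TTCCTG on both strands, a hexamer that contains the core of sites bound by ETS factors, several of which act in endothelial genes. RefSeq promoters were found for 51 of the 82 genes, and the window was the 250 bases before the transcription start in GRCm38.p6. The hexamer was present in 15 of 56 member promoters (26.8%) and in 25.7% of all promoters, and in 3 of 16 promoters of members above the level and 11 of 33 of members below it. A match is a description of the sequence only, and no match says only that these letters are not in the window. The promoters of the genes above the level that held it, Adam17, Timp1 and Timp3, are shown 5′ to 3′ on the strand of the gene with the match in capitals, where CAGGAA is TTCCTG read on the opposite strand. They lie at chr12:21373633-21373882 (minus strand) for Adam17, chrX:20869916-20870165 (plus strand) for Timp1 and chr10:86300162-86300411 (plus strand) for Timp3.
Adam17: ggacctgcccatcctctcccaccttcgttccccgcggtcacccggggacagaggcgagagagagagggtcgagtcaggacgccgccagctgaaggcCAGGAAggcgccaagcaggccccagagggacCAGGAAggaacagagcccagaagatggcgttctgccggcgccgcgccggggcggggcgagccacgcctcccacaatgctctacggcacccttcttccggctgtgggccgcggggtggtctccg
Timp1: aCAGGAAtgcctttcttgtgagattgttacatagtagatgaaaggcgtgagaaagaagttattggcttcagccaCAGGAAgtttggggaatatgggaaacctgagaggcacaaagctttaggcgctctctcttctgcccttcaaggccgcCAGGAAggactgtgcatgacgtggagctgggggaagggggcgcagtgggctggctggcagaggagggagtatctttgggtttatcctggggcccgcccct
Timp3: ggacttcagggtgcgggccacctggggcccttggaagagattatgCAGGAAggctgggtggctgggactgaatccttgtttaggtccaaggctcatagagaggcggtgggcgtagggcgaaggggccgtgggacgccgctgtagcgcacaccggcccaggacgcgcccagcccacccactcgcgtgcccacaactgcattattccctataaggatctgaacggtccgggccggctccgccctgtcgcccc
All matches were on the strand opposite to the gene, with 2 in Adam17, 3 in Timp1 and 1 in Timp3. No match was found in these windows for Adamts1, Adamts9, Adam15, Adam19 or Mmp14, which were also above the level.

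Neighbouring genes were grouped by their order in RefSeq, allowing at most 2 other protein-coding genes between members. For the counts that follow, 61.0% of the 82 members and 41.6% of all genes were below the level. Above it were 28.0% and 41.6%. Whether position had a part in the calls was not tested. The longest run was on chromosome 9, where the 10 genes Mmp13, Mmp12, Mmp1b, Mmp3, Mmp1a, Mmp10, Mmp8, Mmp27, Mmp20 and Mmp7 lie together, and 9 of these were below and Mmp12 was on neither side. Of 3 runs of ADAM genes on chromosome 8, those of 4 and 3 genes were below throughout. The run of 5 held 4 testis genes below the level (Adam18, Adam3, Adam5 and Adam32) and Adam9 above it. Adamts1 and Adamts5 are neighbours on chromosome 16, the first above and the second on neither side.

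Of 18 measured genes that activate, inhibit or escort metalloproteinases, 9 were above and 5 below (6 and 2 with the pooled spread). For this and the following lists the shares over all genes were 41.6% on either side, and 36.0% above and 32.5% below with the pooled spread, and some of the lists lay near them. Furin, the convertase that removes the inhibitory prodomain of many ADAMs and membrane-type MMPs, measured 6.86 log2 in every array. Pcsk5 and Pcsk7, further convertases, were above at 6.999 log2 in every array and at 7.06, 7.06 and 6.93 log2, while Pcsk6 was on neither side at 6.57, 6.57 and 6.16 log2. Of these 3 convertases above, none was above with the pooled spread.

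Among 19 measured surface proteins shed by ADAMs, 10 were above and 5 below (10 and 2 with the pooled spread). Notch1, cut by ADAM10, measured 8.41, 8.25 and 6.91 log2 and, like Adam10, passed only with the pooled spread (adjusted p = 0.112 with its own). Notch4, the endothelial Notch receptor, was above at 7.73, 7.73 and 7.39 log2 (adjusted p = 0.0109). Notch2 and the Notch ligand Dll1 were below, at 6.10 and 6.29 log2 in every array, and neither was below with the pooled spread.

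Of 17 measured matrix substrates, 11 were above and 3 below (8 and 1 with the pooled spread). Vcan, the versican cut by ADAMTS1 and ADAMTS9, measured 6.85 log2 in every array and passed only with its own spread. The cartilage proteoglycan gene Acan was below at 5.03, 5.03 and 5.44 log2, and the brain proteoglycan genes Bcan and Ncan were on neither side, at 5.91, 5.91 and 6.46 log2 and at 6.13, 6.18 and 6.92 log2. Of 11 other zinc metalloproteases, 3 were above and 7 below (4 and 5 with the pooled spread). Bmp1, the procollagen C-proteinase, measured 7.94, 7.87 and 7.82 log2, and its relative Tll1 measured 7.27 log2 in every array. Tll2 and the meprin gene Mep1a were below, at 5.65, 5.65 and 5.59 log2 and at 4.87, 4.87 and 5.88 log2.

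Pearson correlations over the 107 probe sets were 0.979 between arrays 1 and 2, 0.934 between 1 and 3, and 0.930 between 2 and 3, close to those over all probe sets (0.976, 0.923 and 0.927). They are across probe sets, which are not independent replicates. Values were exactly equal in arrays 1 and 2 for 79 of the 107 probe sets (73.8%, against 50.6% of all probe sets), and in all 3 arrays for 29 (27.1%, against 19.7%). How the deposited table came to hold equal values was not tested. Array 3 differed from arrays 1 and 2 in opposite directions over and under the level. In array 3, 8 of the 30 members with a mean of at least 100 lay at least 0.5 log2 units under the mean of arrays 1 and 2, and none lay that far over it, where the shares among all genes with such a mean were 25.0% and 3.29%. At least 0.5 log2 units over that mean were 5 of the 82 members (6.10%), all with a mean under 100, where the share of all genes was 11.7%. Array 3 minus the mean of arrays 1 and 2 was -1.82 log2 for Adam10, -1.43 for Adamts9, -1.15 for Adamts5, -0.95 for Timp3 and -0.91 for Adam19.

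**Figure D4:**
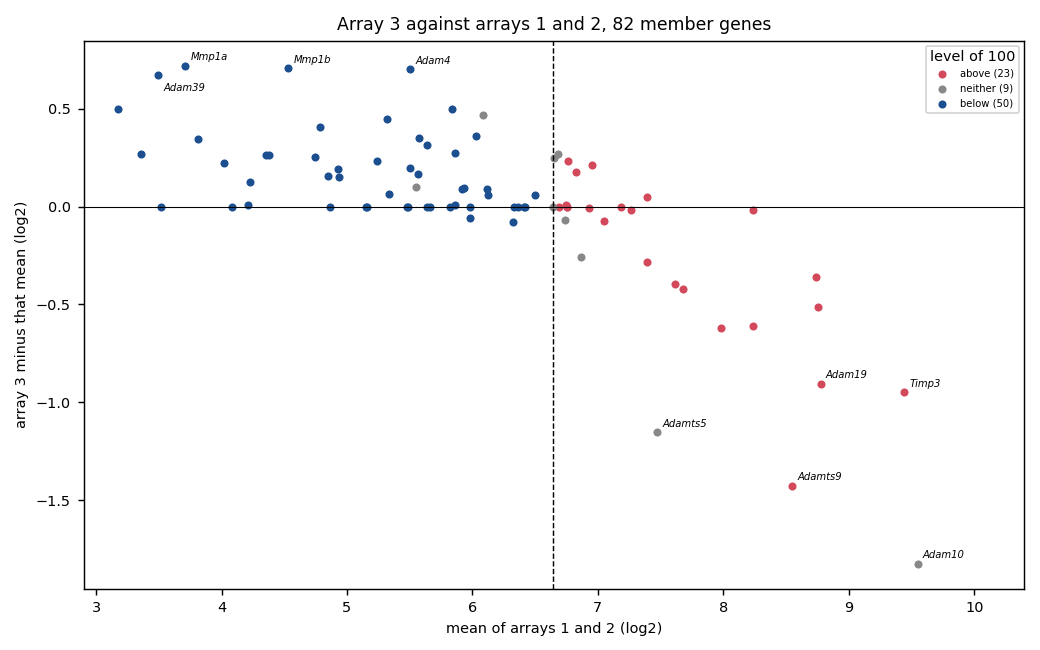
Array 3 minus the mean of arrays 1 and 2 (vertical axis, log2) against that mean (horizontal axis, log2) for the 82 genes, coloured by their call, with the level of 100 as a dashed line. The genes over 8 log2 on the horizontal axis lie under 0, down to Adam10 at -1.82, and nearly all genes left of the dashed line lie at or over 0.

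The endothelial markers moved the same way, with mean levels of 10.23, 10.06 and 9.18 log2 in arrays 1, 2 and 3. The macrophage markers measured 6.74, 7.86 and 8.38 log2 and the 4 megakaryocyte markers 7.20, 7.22 and 7.66 log2. The latter did not move alike. Pf4 measured 9.27, 9.34 and 10.63 log2 and Itga2b 6.81, 6.81 and 7.27 log2. Gp9 measured 6.39, 6.39 and 6.55 log2, while Ppbp was lowest in array 3 at 6.35, 6.35 and 6.18 log2. The stromal markers measured 6.44, 6.48 and 6.77 log2. The neutrophil markers, of which none was above the level, measured 5.35, 5.38 and 5.80 log2. Of all probe sets called below the level, 57.8% were highest in array 3. The marker values are those before quantile normalization. In RNA from sorted pools, fewer cells of a type and less RNA per cell cannot be told apart. Array 3 also had the smallest SD over probe sets (1.84 log2 against 2.08 and 2.06). The part of that narrower range in the marker levels was not tested. The part of these markers in the differences of the members was not tested either. After quantile normalization, which gives the 3 arrays the same distribution, array 3 was still lowest for Adam10 (9.49, 9.34 and 7.91 log2), Adamts9 (8.45, 8.43 and 7.20 log2), Adamts5 (7.37, 7.45 and 6.26 log2) and Timp3 (9.53, 9.07 and 8.77 log2). For Adam17 the values then spanned 0.13 log2 units (8.63, 8.61 and 8.50 log2), and for Adamts1 array 3 was no longer lowest (8.58, 8.64 and 8.65 log2). The mean over the 82 genes was 6.07, 6.05 and 6.07 log2 in arrays 1, 2 and 3, and that over the 23 genes above was 7.63, 7.56 and 7.34 log2.

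**Figure D5:**
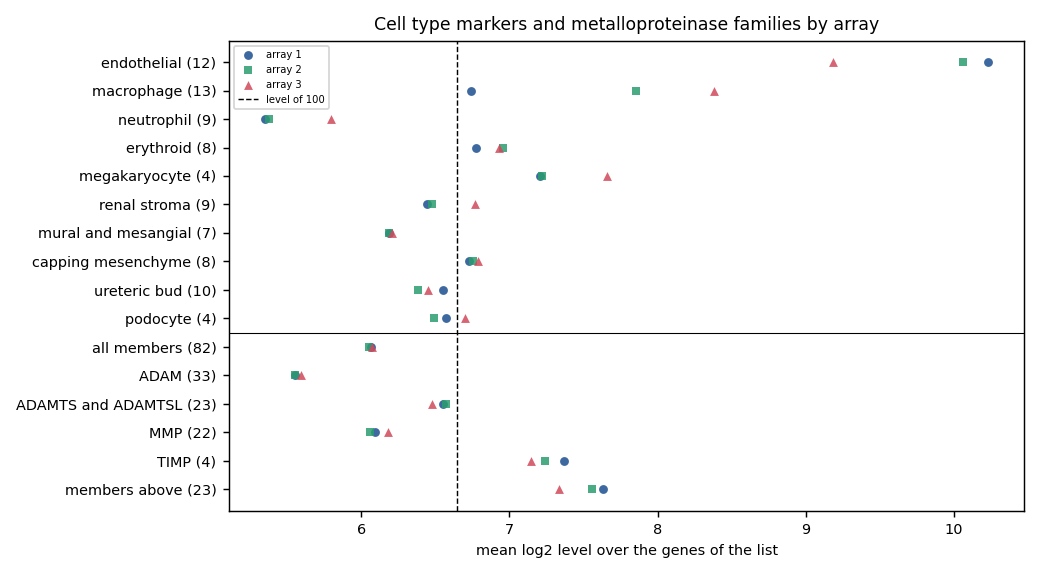
Mean log2 level (horizontal axis) of the cell type marker lists, over the line, and of the metalloproteinase families, under it, in arrays 1, 2 and 3, with the number of genes in brackets and the level of 100 as a dashed line. Endothelial markers are lowest and macrophage markers highest in array 3, while the mean of all 82 members lies between 6.05 and 6.07 log2.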

How the data were processed

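RNA of Tie2-GFP positive cells was measured on 3 arrays. Log2 values of 35557 probe sets were deposited and used unchanged. Affymetrix Expression Console is named, without a version, in the submitters' processing notes. The study's methods name RMA and GeneSpring for its own analysis, and how the probes of the deposited table were summarized is not given in the sources. Arrays give no read depth, and their number limits the precision.

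Gene symbols came from the platform's annotation, with 1 symbol for 21789 probe sets, several for 1621 and none for 12147. Symbols were updated through RefSeq, which held all 82 members, and 2 probe sets that named a member together with another gene were left out. A gene's value is the mean of its probe sets.

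Each probe set's mean was tested against 100 with an intercept-only fit and eBayes in limma 3.58.1 (R 4.3.3), one-sided for each side of the level, and adjusted by Benjamini-Hochberg over the 35557 probe sets with a threshold of 0.05. The p of a gene is the smallest of its probe sets for the side above and the largest for the side below. The own spread is that of each probe set after eBayes, which combines it with a prior SD of 0.016 log2. The pooled spread is 1 SD over all probe sets. The fit was tested on simulated data with normal noise. These data held no exactly equal values, so the simulation does not cover calls that rest on such values. Alternatives were levels of 64, of 200 and of olfactory and vomeronasal receptor probe sets, other spreads, normalizations and adjustments, gene means, no test, and leaving out each array.

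The members and gene lists were chosen with earlier results of these data known. Named were the family genes the study names, members above the level, the first 4 measured genes of each role and pathway list, members with probe sets on both sides, the 5 of largest SD, members over 100 in all arrays with no call, and Tek. Adam28, Adamts6, Adamts8, Adamts15, Adamts16, Adamts20, Mmp25, Vwf and the genes listed by position fall outside that rule and were added after their values were seen. Promoter sequences are from RefSeq (GRCm38.p6). A search for zinc-binding sites in proteins was planned and not run. Calculations used Python 3.11.15, numpy 2.4.6, pandas 2.3.3 and matplotlib 3.10.9.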

Additional observations from a re-analysis of the deposited data

How the results depend on the processing

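The 23 members above the level became 37 at a level of 64, 4 at a level of 200 (7.64 log2), 28 at the level of the receptor probe sets (6.45 log2) and 15 with the pooled spread. They were 23 with a spread that follows the mean, 20 after quantile normalization or median centring, 24 with adjustment over named probe sets, 22 over gene means and 29 without a test. Leaving out 1 array gave 11 to 26. The 50 below became 31 at 64 and 68 at 200, and lay between 41 and 51 in the other fits on 3 arrays. Leaving out 1 array gave 35 to 49.

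Moving the level turned the sign of means near it. At 64 the mean minus the level was 0.33 log2 for Adam11, 0.36 for Adamts12, 0.14 for Adamtsl2, 0.42 for Mmp24, 0.30 for Mmp19, 0.52 for Mmp23 and 0.24 for Mmp12 (no call), and at the receptor level it was 0.071 for Mmp23. At 200 it was -0.16 for Adam9, -0.34 for Adam12, -0.998 for Adam8, -0.62 for Adam33, -0.90 for Adam1a, -0.89 for Adamts4, -0.96 for Adamts14, -0.46 for Adamts7, -0.11 for Adamts10, -0.80 for Adamtsl1, -0.24 for Adamtsl4, -0.89 for Adamtsl5, -0.62 for Mmp16, -0.87 for Mmp17, -0.93 for Mmp11, -0.91 for Mmp28, -0.38 for Timp1, -0.72 for Timp2, -0.56 for Adamts5 (no call) and -0.76 for Adamts17, still above through its probe sets over the level. These follow from the choice of level. No paired analysis was possible because the arrays form 1 group. A level on an array is not an amount of RNA, and with 3 arrays a gene near 100 cannot be placed on either side with certainty.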

Other observations

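The table held many exactly equal values, between probe sets as well as between arrays. Of 35557 probe sets, 15665 shared their value with another probe set of array 1, 16130 of array 2 and 10360 of array 3, and up to 112, 114 and 145 probe sets sat on a single value. Adamts4, a proteoglycanase, and Adamtsl5, an ADAMTS-like gene, had the same value, 6.75 log2, in all 3 arrays and therefore the same adjusted p of 0.00128 by limma's test. How these equal values arose was not tested.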
